A study of Mus musculus with 10 samples.

Results

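The genes described are 8 that encode nicotinic acetylcholine receptor subunits or the anchor of the muscle receptor, out of 34590 gene symbols listed in the count files. They were found by their symbols in all 10 count files. *Chrna9* and *Chrna10* encode the subunits of hair cells, *Chrna1*, *Chrnb1*, *Chrnd*, *Chrng* and *Chrne* encode the subunits of the muscle receptor, and *Rapsn* encodes rapsyn, the protein that gathers the muscle receptor under the nerve ending. Of the 8 genes, 7 passed the filter on low counts and were tested, and *Chrnd* did not.

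Hair cells turn sound into electrical signals, and efferent fibres from the brainstem adjust them by releasing acetylcholine. The receptor on the hair cell is built from α9 and α10 subunits, and the calcium that it lets in opens nearby potassium channels, so the cell is inhibited rather than excited. Mature outer hair cells (OHCs) carry this synapse for life, whereas inner hair cells (IHCs) are contacted directly by efferent fibres mainly before hearing begins. At the neuromuscular junction, a different set of subunits forms the receptor, with the γ subunit in the foetal form and the ε subunit in the adult form.

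The study asked how close hair cells made from supporting cells (SCs) by the transcription factor Atoh1 come to native hair cells. Bulk RNA-seq libraries were made from handpicked fluorescent mouse cochlear cells of 5 types, with 2 libraries of each. The SCs, labelled as 27 and 26 days old, came from mice with Fgfr3iCreER and a Cre-dependent tdTomato in Rosa26. The converted hair cells (cHCs), labelled P33, came from mice that carried in addition the Atoh1-HA transgene and alpha9 AChR-EGFP, a reporter in which *Chrna9* regulatory sequence drives EGFP. Tamoxifen was given to the mice of both groups at P12 and P13, and Fgfr3iCreER acts in Deiters' and pillar cells. The OHCs at P7 and the mature OHCs, whose titles read as days 21 and 22 and which are called OHCs (P22), were labelled as heterozygous for the prestin-YFP knock-in. For OHCs (P7) the study's supplement names another line, Prestin-CreERT2 with tdTomato, and tamoxifen given before P7. The IHCs, whose titles read as days 74 and 75, came from mice with Pval-Cre and tdTomato, a combination that also labels OHCs weakly. The study calls the libraries of a type biological duplicates, and the labels do not name the animals behind them. Fewer cells of a type in a library and less RNA per cell cannot be told apart in such bulk samples.

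Depth ranged from 15016129 to 40518766 counts on genes per library. Levels are given as CPM, a count rate scaled to a common library size by the trimmed mean of M values (TMM), and 3 counts corresponded to between 0.0762 and 0.264 CPM on that scale. One library of OHCs (P22), the one labelled day 21, stood apart in its TMM factor of 0.583, against 0.930 to 1.20 in the other libraries. The hair cell marker *Pou4f3* was at 0.355 and 0.584 CPM in SCs and at 235 CPM or more in each hair cell library. The OHC marker *Slc26a5*, which encodes prestin, was at 2749 CPM or more in OHCs (P22) and at 1061 and 1094 CPM in OHCs (P7), and the IHC marker *Slc17a8* was at 1763 CPM or more in IHCs. The summed level of 6 SC markers was 869 to 1273 CPM in SCs, 759 to 958 CPM in cHCs, 586 to 753 CPM in IHCs, 50.8 to 257 CPM in OHCs (P7) and 3.20 to 7.76 CPM in OHCs (P22). The cHCs and IHCs thus held a higher sum of SC markers than OHCs (P22), but the single markers went different ways. In cHCs *Fgfr3* (458 and 431 CPM) and *Prox1* (247 and 293 CPM) were above SCs (167 and 312, 14.7 and 53.7 CPM), while *Sox2*, *Sox9*, *Gjb2* and *Hes1* were below. In IHCs *Gjb2*, at 611 and 468 CPM, was above SCs (124 and 393 CPM), and the others were below. The part of SC RNA in the results was not tested. The libraries of SCs, cHCs and OHCs (P7) carry one run of numbers and those of OHCs (P22) and IHCs another, so a batch of that kind cannot be told apart from the cell types.

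The sequences before the transcription starts are shown for the 4 genes whose levels differed among the cell types, because the cHCs were made with Atoh1, a factor known to bind the E-box CANNTG. RefSeq sequences of 250 bases before the start were placed in the mm9 build (NCBIM37) by their unique match, and the E-boxes are in capitals.
Chrna9, chr5:66358113-66358362, plus strand: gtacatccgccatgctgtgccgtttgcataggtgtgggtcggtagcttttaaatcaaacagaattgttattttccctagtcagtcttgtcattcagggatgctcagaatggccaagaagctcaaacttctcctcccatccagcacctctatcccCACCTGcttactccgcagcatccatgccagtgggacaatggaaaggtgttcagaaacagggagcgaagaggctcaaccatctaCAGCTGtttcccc
Chrna10, chr7:109265228-109265477, minus strand: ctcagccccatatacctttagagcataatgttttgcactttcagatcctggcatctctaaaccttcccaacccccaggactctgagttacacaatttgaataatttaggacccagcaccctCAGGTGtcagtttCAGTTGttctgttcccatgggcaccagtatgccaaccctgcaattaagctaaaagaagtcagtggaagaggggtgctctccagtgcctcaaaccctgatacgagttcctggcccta
Chrna1, chr2:73418396-73418645, minus strand: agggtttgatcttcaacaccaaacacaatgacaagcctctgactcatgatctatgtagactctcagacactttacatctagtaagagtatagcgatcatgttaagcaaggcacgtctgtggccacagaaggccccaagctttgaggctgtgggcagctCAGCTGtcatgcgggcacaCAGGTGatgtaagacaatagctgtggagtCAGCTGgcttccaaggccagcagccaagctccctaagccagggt
Chrng, chr1:89102136-89102385, plus strand: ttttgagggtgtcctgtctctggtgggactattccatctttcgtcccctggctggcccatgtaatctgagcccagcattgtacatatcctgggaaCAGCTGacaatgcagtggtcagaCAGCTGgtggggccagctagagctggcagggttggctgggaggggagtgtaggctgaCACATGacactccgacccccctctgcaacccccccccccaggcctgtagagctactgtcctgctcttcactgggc
The window of *Chrna9* held CACCTG 96 bases and CAGCTG 13 bases before the start, and that of *Chrna10* held CAGGTG at 129 and CAGTTG at 116 bases. The window of *Chrna1* held 3 E-boxes, CAGCTG at 92, CAGGTG at 73 and CAGCTG at 44 bases, and that of *Chrng* held CAGCTG at 155 and 132 bases and CACATG at 75 bases. Every CANNTG match reads as an E-box on both strands. Among 32851 promoter windows of this length, 66.2% held at least 1 CANNTG and 13% held CAGCTG, so a match is common and is given as a description only. The window of *Chrna9* lies inside an intron of 2 longer GENCODE transcripts that start upstream, and the other 3 windows lie outside annotated genes.

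*Chrna9* encodes the α9 subunit and lies on chromosome 5 from 66326160 to 66368565 on the plus strand. It was lowest in SCs, at 0.577 CPM in replicate 12 and 0.691 CPM in replicate 11, from 13 and 26 counts. In cHCs it reached 669.9 CPM in replicate 13 and 648 CPM in replicate 16. The OHCs (P7) held 131 and 159.7 CPM, the OHCs (P22) 405 and 134 CPM, and the IHCs 7.14 and 17.8 CPM. The 405 CPM came from the day 21 library, which stood apart in its TMM factor of 0.583. Both cHC libraries were thus above every other library, both IHC libraries lay between SCs and OHCs, and the ranges of the OHCs at both ages overlapped. The cHCs were picked by a *Chrna9* reporter, so their level is a description of the cells chosen and its difference from SCs is no finding. The reporter transgene was present in cHCs only, and its transcripts cannot be told apart here from those of the endogenous gene.

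Group means of *Chrna9* were 659 ± 15.8 CPM in cHCs, 270 ± 192 CPM in OHCs (P22), 145 ± 20.3 CPM in OHCs (P7), 12.5 ± 7.56 CPM in IHCs and 0.634 ± 0.0800 CPM in SCs (mean ± SD, 2 libraries each). Against SCs the log2 difference was 8.72 ± 0.87 (SE) in OHCs (P22), 7.83 ± 0.84 in OHCs (P7) and 4.28 ± 0.72 in IHCs, with adjusted p of 0.000201, 0.000399 and 0.00886 in edgeR's quasi-likelihood test. IHCs were lower than OHCs (P22) by a log2 difference of -4.43 ± 0.71 (adjusted p = 0.0161, edgeR), a call that was lost without the day 74 IHC library (adjusted p = 0.0549), in an edgeR fit of both types alone (0.0893) and with limma-voom (0.0626). IHCs and OHCs (P7) differed by -3.54 ± 0.68, which missed the threshold of 0.05 (adjusted p = 0.0624, edgeR). The OHCs (P22) did not overlap with the cHCs, and their log2 difference of -1.29 ± 0.62 missed the threshold in edgeR (adjusted p = 0.285) but passed it with limma-voom (0.0324), a comparison that the picking of cHCs also touches. The OHCs at both ages, which overlapped, differed by 0.89 ± 0.62 (adjusted p = 0.519, edgeR).

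*Chrna10*, on chromosome 7 from 109259780 to 109265227 on the minus strand, encodes the α10 subunit, which forms the native receptor together with α9. In SCs it was at 0.489 and 0.744 CPM, from 11 and 28 counts. It was at 117 and 189 CPM in cHCs, at 446 and 486 CPM in OHCs (P7), at 1466 and 894 CPM in OHCs (P22) and at 11.5 and 8.39 CPM in IHCs. The 1466 CPM came from the day 21 library with the TMM factor of 0.583. No 2 cell types overlapped, and the order from the lowest was SCs, IHCs, cHCs, OHCs (P7) and OHCs (P22). The position of cHCs thus differed between both subunits, at the top for *Chrna9* and below both OHC groups for *Chrna10*.

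The cHCs, picked by the *Chrna9* reporter and not by *Chrna10*, were higher than SCs by a log2 difference of 7.94 ± 0.64 (SE), with means of 153 ± 50.9 against 0.616 ± 0.180 CPM (adjusted p = 8.22e-05, edgeR). The study holds that its handpicked cHCs likely came from the later states of conversion, and found *Chrna10* almost only in the last. The part of the picking in the *Chrna10* level of cHCs was not tested. OHCs (P22), at 1180 ± 405 CPM, were higher than cHCs by 2.94 ± 0.51 (adjusted p = 0.0119, edgeR). That call was lost without cHC replicate 13 (adjusted p = 0.0712), without the day 21 library of OHCs (0.0535) and in an edgeR fit of those cell types alone (0.0596). OHCs (P7) lay between them at 466 ± 28.5 CPM and passed against neither, with an adjusted p in edgeR of 0.260 against cHCs and 0.266 against OHCs (P22). IHCs, at 9.92 ± 2.17 CPM, were lower than cHCs by -3.95 ± 0.53, than OHCs (P7) by -5.55 ± 0.57 and than OHCs (P22) by -6.89 ± 0.61, with adjusted p of 0.00678, 0.00246 and 0.00101 in edgeR. IHCs were still higher than SCs, by 3.99 ± 0.54 (adjusted p = 0.00231, edgeR). For both hair cell subunits the call of IHCs against SCs was lost with limma-voom (adjusted p of 0.232 and 0.241) and in an edgeR fit of those types alone (0.231 and 0.257). The OHC marker *Slc26a5* was at 1.31 and 0.859 CPM in the IHC libraries and at 0.755 and 0.531 CPM in SCs, while another OHC marker, *Ocm*, was at 239 and 68.6 CPM in IHCs. The part of OHC RNA in the IHC values was not tested.

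**Figure D1:**
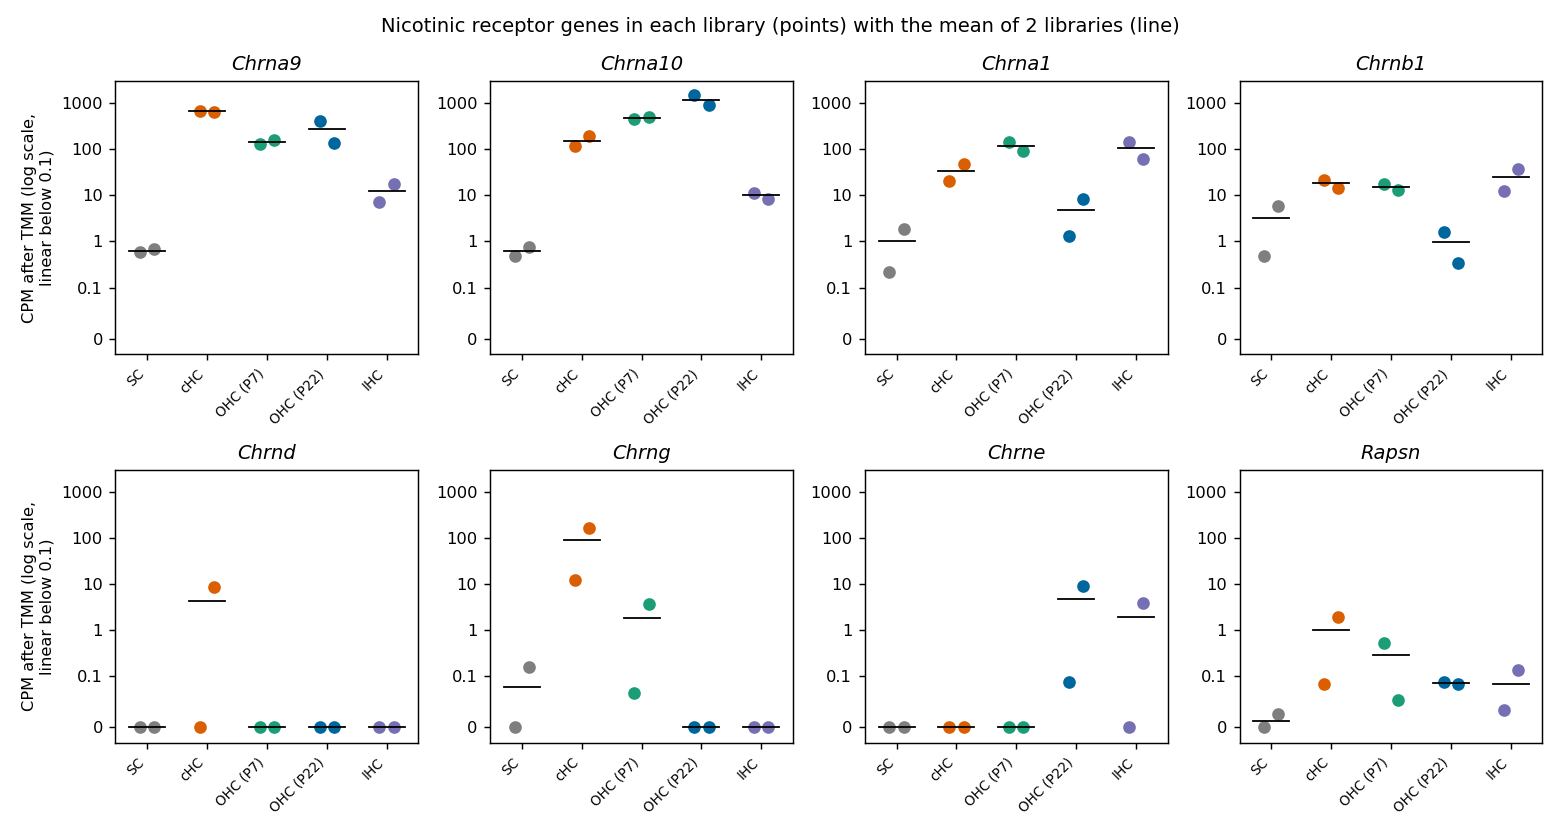
Level of each of the 8 genes in each library, in CPM after TMM scaling on an axis that is logarithmic above 0.1 CPM and linear below it. Points are libraries and lines are means of 2 libraries. *Chrna9* peaks in cHCs, *Chrna10* in OHCs (P22), *Chrna1* is high in OHCs (P7) and IHCs, and *Chrng* is high in cHCs, with replicate 13 at 12.2 and replicate 16 at 164 CPM.

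The ratio of *Chrna10* to *Chrna9* within a library does not depend on library size, and was taken on counts per kilobase of exon (2.513 and 3.018 kb). In cHCs it was 0.211 and 0.351, so *Chrna9* exceeded *Chrna10* in both libraries. In OHCs the order was turned, with ratios of 4.09 and 3.65 at P7 and of 4.35 and 8.02 at P22. The IHC libraries fell on both sides of 1, at 1.93 and 0.565. In SCs the ratio was 1.02 and 1.29, but rested on 11 to 28 counts of each gene and was kept out of the test. Mean log2 ratios were -1.88 ± 0.52 in cHCs, 1.95 ± 0.11 in OHCs (P7), 2.56 ± 0.63 in OHCs (P22) and 0.06 ± 1.25 in IHCs (mean ± SD, 2 libraries each). The type means spanned a range of 4.44 on the log2 scale. The cHCs were picked by a *Chrna9* reporter, and *Chrna9* is the denominator of this ratio, so their low ratio is a description and no test is given for it. Without the cHCs the range was 2.50 over OHCs (P7), OHCs (P22) and IHCs, and an exact permutation test (1-sided) gave p = 0.0667, the smallest value that the 15 arrangements of 6 libraries allow, so this design cannot reach 0.05.

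**Figure D2:**
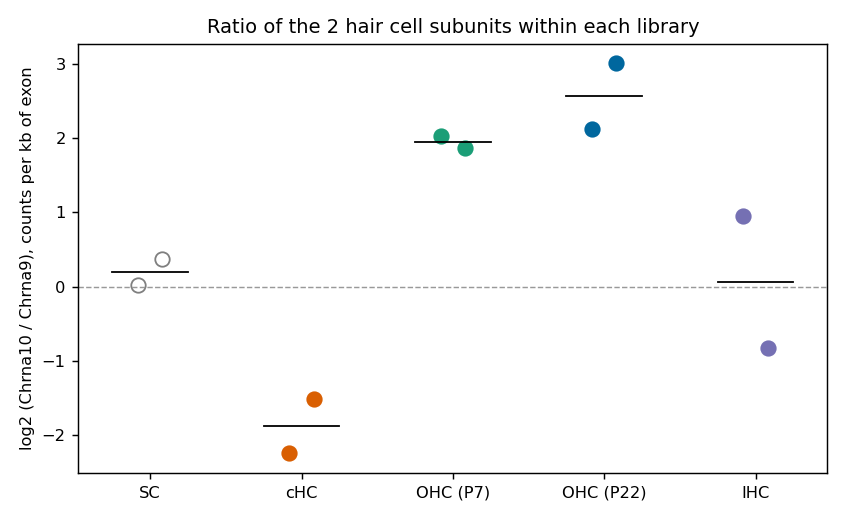
Log2 ratio of *Chrna10* to *Chrna9*, from counts per kilobase of exon, in each library (points) with the mean of each cell type (line). Open points are SCs, with at most 28 counts of either gene. Both cHC libraries lie below 0 and all 4 OHC libraries above it.

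Among the subunits of the muscle receptor, *Chrna1* had the highest mean CPM of any cell type, although *Chrng* was above it within cHCs, at 88.2 against 33.8 CPM, and had the highest mean per kilobase of exon, at 45.9 in cHCs against 26.8 CPM per kb for *Chrna1* in OHCs (P7). *Chrna1* encodes α1, which contributes the principal face of the acetylcholine binding sites in that receptor, and lies on chromosome 2 from 73401272 to 73418395 on the minus strand. It was at 0.222 and 1.86 CPM in SCs, at 20.0 and 47.6 CPM in cHCs, at 146 and 89.4 CPM in OHCs (P7), at 1.32 and 8.21 CPM in OHCs (P22) and at 145 and 62.3 CPM in IHCs. The OHCs (P7) and IHCs overlapped at the top, the cHCs lay below both, and the OHCs (P22) overlapped the SCs. On levels per kilobase of exon, the mean of *Chrna1* in IHCs was 23.6 CPM per kb, against 4.14 for *Chrna9* and 3.95 for *Chrna10*, whereas in OHCs (P22) it was 1.09 against 89.3 and 469.7 CPM per kb.

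*Chrna1* was higher than in SCs by a log2 difference of 6.79 ± 1.39 (SE) in OHCs (P7) and of 6.61 ± 1.38 in IHCs, with adjusted p of 0.0230 and 0.0288 in edgeR. Both calls were lost without SC replicate 12 (adjusted p of 0.0725 and 0.0888), and the call in IHCs also without the day 74 IHC library (0.0566). The cHCs were at 5.0 ± 1.28 above SCs, which missed the threshold (adjusted p = 0.0888, edgeR). The difference of OHCs (P22) from OHCs (P7) was -4.61 ± 1.26 and that of IHCs from OHCs (P22) was 4.43 ± 1.24, with adjusted p of 0.150 and 0.124 in edgeR, although neither pair of groups overlapped.

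*Chrnb1*, on chromosome 11 from 69597538 to 69609445 on the minus strand, encodes β1, which adult and foetal muscle receptors share. It was at 0.489 and 6.0 CPM in SCs, at 21.9 and 14.2 CPM in cHCs, at 17.4 and 13 CPM in OHCs (P7), at 1.59 and 0.337 CPM in OHCs (P22) and at 12.3 and 37.1 CPM in IHCs. The cHCs, OHCs (P7) and IHCs overlapped, and OHCs (P22) lay below all 3. No pair of cell types passed the test, with log2 differences of -4.24 ± 1.67 for OHCs (P22) against cHCs and 4.70 ± 1.7 for IHCs against OHCs (P22) and adjusted p of 0.201 and 0.230 in edgeR.

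The genes of the γ and δ subunits lie side by side on the plus strand of chromosome 1, *Chrnd* from 89087227 to 89096644 and *Chrng* from 89102386 to 89108410, with 5741 bases between them. *Chrng* was at 12.2 and 164 CPM in cHCs, from 286 and 6469 counts. It was at 0 and 0.159 CPM in SCs, at 0.0671 and 3.66 CPM in OHCs (P7), and had no count in OHCs (P22) or IHCs. Both cHC libraries were above all others, but on a fold scale they differed from each other by more than the lower of them did from the higher OHC (P7) library. *Chrnd* had 338 counts, or 8.59 CPM, in cHC replicate 16 and no count in the other 9 libraries, so the library with the most *Chrng* was the library with *Chrnd*.

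The mean of *Chrng* in cHCs was 452-fold the level that 3 counts per library would give in OHCs (P22), and 865-fold that level in IHCs. That mean rested mostly on replicate 16, at 164 against 12.2 CPM in replicate 13. With the lower cHC library alone the values were 62.3-fold and 119-fold. These folds are no lower bounds on the difference, because duplicates of such amplified handpicked cells can differ between 0 and many counts. *Chrnd* had 0 and 338 counts in cHCs, and *Chrne* had 0 and 113 counts in IHCs. Across all 5 cell types *Chrng* differed in the joint test (adjusted p = 0.0248, edgeR), but that call was lost without cHC replicate 16 (adjusted p = 0.199). No pair passed in edgeR, with an adjusted p of 0.142 for cHCs against SCs and 0.0667 for OHCs (P22) against cHCs. Both pairs passed with DESeq2 (adjusted p of 0.0343 and 0.00504) and with limma-voom (0.0385 and 0.0282). Because *Chrng* passed the filter on low counts through its levels in cHCs, these passes are not independent of that group and are a description only. Over 17 alternatives the pairs passed in 6 and 12, and without cHC replicate 16 they had an adjusted p of 0.671 and 0.300 (edgeR). *Chrne*, the gene of the ε subunit on chromosome 11 from 70428385 to 70432718, went the other way. It had 1 and 217 counts in OHCs (P22), at 0.0882 and 9.14 CPM, and 0 and 113 counts in IHCs, at 0 and 3.88 CPM, with no count in SCs, cHCs or OHCs (P7). It did not pass the joint test (adjusted p = 0.222, edgeR), and it overlaps a gene on the other strand, whose reads cannot be told apart without strand. *Rapsn*, on chromosome 2 from 90875777 to 90885886, had 74 counts in cHC replicate 16, at 1.88 CPM, and at most 8 counts in any other library. *Rapsn* also overlaps another annotated gene, *Gm13778*, and the part of that overlap in its counts was not tested.

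Of 10 markers of skeletal muscle, 8 or 9 were at 0 in every library. Their summed level was 0.170 to 0.457 CPM in cHCs, where *Chrng* was highest, 1.77 to 5.44 CPM in OHCs (P7), 5.05 to 14.3 CPM in OHCs (P22) and 2.09 to 4.54 CPM in IHCs. *Myh1* and *Mb* had no count in any library, and *Myog*, a transcription factor of muscle, made up most of the sum in OHCs (P7) and IHCs.

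Counted over the comparisons, 4 of the 7 tested genes differed in the joint test of the 5 cell types (*Chrna9*, *Chrna10*, *Chrna1* and *Chrng*), where 7.81% of the 16891 genes tested were called. The joint call of *Chrna9* takes in the reporter-picked cHCs, so the picking also touches it. *Chrng* passed the filter on low counts through its levels in cHCs, so its joint call is not independent of that group. The same holds for its pair calls under the alternatives. Against SCs, *Chrna10* was called in every hair cell type, *Chrna9* in OHCs (P7), OHCs (P22) and IHCs, and *Chrna1* in OHCs (P7) and IHCs. *Chrna9* also passed in cHCs, which follows from the picking by its reporter and is not read as a result. The share of all genes called was 1.84% for cHCs, 3.41% for OHCs (P7), 8.02% for OHCs (P22) and 2.65% for IHCs. Between hair cell types, *Chrna10* was the 1 gene called for OHCs (P22) against cHCs (3.18% of all genes called) and for IHCs against OHCs (P7) (0.379%). Both hair cell subunits were called for IHCs against OHCs (P22) (1.46%). For IHCs against cHCs (0.924%) *Chrna10* was called, and *Chrna9* passed as well, with the same limit from the picking. For OHCs (P7) against cHCs 0 of 7 were called by edgeR (0.343% of all genes), with 3 at an unadjusted p under 0.05, while DESeq2 called 0 (6.66% of all genes) and limma-voom 1 (2.24%). The limma-voom call was *Chrna9* (adjusted p = 0.0277), which was also 1 of those 3, with the same limit from the picking. For OHCs (P22) against OHCs (P7) 0 of 7 were called by edgeR (0.551%), with 4 at an unadjusted p under 0.05, while DESeq2 called 2, *Chrna1* and *Chrnb1* (9.71%), and limma-voom 0 (0.651%). The comparisons with SCs share the same SC libraries.

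**Figure D3:**
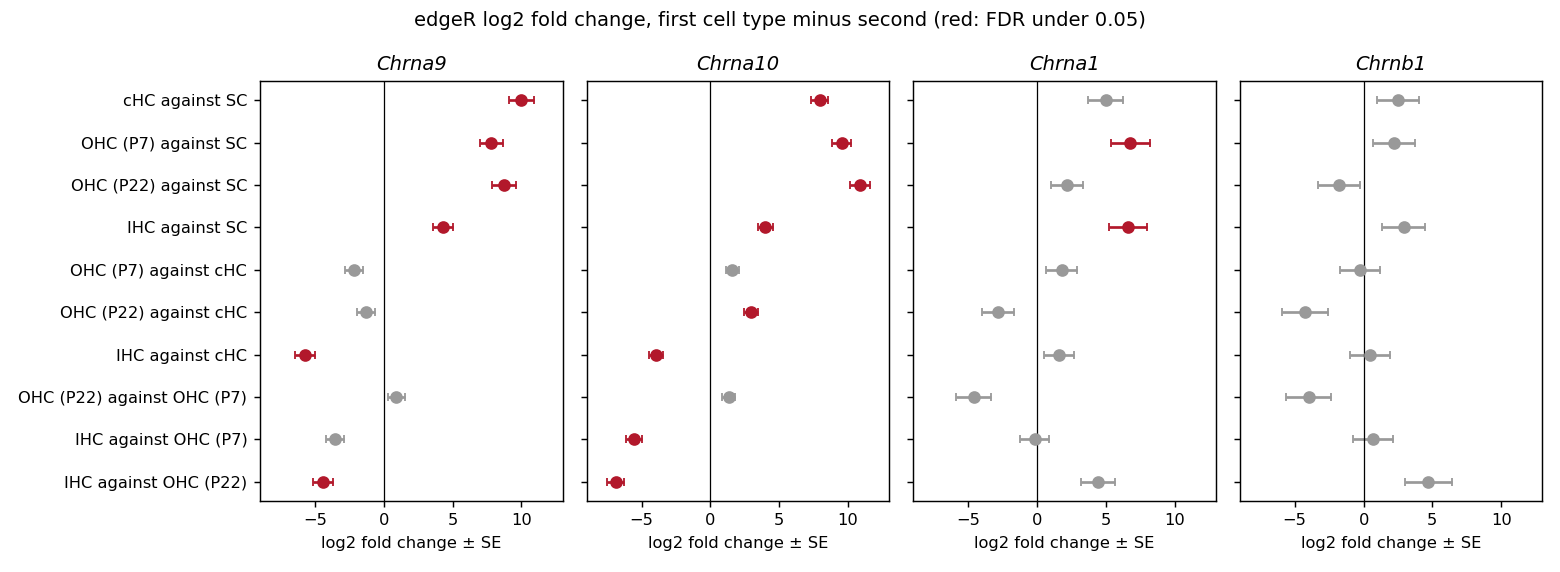
Log2 fold change (edgeR) of 4 receptor genes in 10 comparisons, the first cell type named minus the second, with bars of 1 SE. Red points have an adjusted p under 0.05. *Chrna10* is red in all 4 comparisons with SCs, *Chrna9* is red in the same 4, of which that of the reporter-picked cHCs is a description only, *Chrna1* is red for OHCs (P7) and IHCs against SCs, and no point of *Chrnb1* is red.

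The genes whose patterns were most like those of the receptor genes were ranked by Pearson's r of log2 CPM over the 10 libraries, as a description. For *Chrna9* they were *Pfkp* (r = 0.970), *Hydin* (0.966) and *Raver2* (0.963), and *Chrna10* came at rank 34 with r = 0.91. For *Chrna10* they were *Faim2* and *Atp8a2* (both 0.984) and *Bai2* (0.978), and *Chrna9* came at rank 57. For *Chrna1* they were *Pdzrn3* (0.960), *Clip4* (0.955) and *Epha4* (0.947), and *Chrnb1* came at rank 378 with r = 0.755. The libraries of a cell type share most of what these values rest on.

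The calcium that enters through the hair cell receptor acts together with stores in the cistern beneath the synapse and opens SK2 (*Kcnn2*) or BK (*Kcnma1*) potassium channels. Of 13 genes of such channels, store channels and calcium pumps, 12 were tested. *Kcnn2* was at 0.0888 and 0.186 CPM in SCs, at 5.23 and 10.5 CPM in cHCs, at 117 and 127 CPM in OHCs (P7), at 228 and 203 CPM in OHCs (P22) and at 15.7 and 6.15 CPM in IHCs. It thus followed the order of *Chrna10* except that cHCs and IHCs overlapped. *Kcnma1* was at 0.0444 and 0.0266 CPM in SCs, at 0.255 and 0.356 CPM in cHCs, at 106 and 25.7 CPM in OHCs (P7), at 479 and 162 CPM in OHCs (P22) and at 187 and 350.5 CPM in IHCs. In cHCs the BK channel gene was therefore far below its level in every native hair cell library, whereas *Kcnn2* overlapped with IHCs.

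Against SCs, 2 of the 12 partner genes were higher in cHCs, *Ryr1*, which encodes a calcium release channel of internal stores, by a log2 difference of 6.36 ± 0.89 (SE) and *Kcnn2* by 5.75 ± 0.89, and none was lower (median of the 12 genes 3.59, of all genes tested 0.03). The share of all genes called in that comparison was 1.84%. In OHCs (P7) 5 were higher (median 8.19, 3.41% of all genes called), in OHCs (P22) 7 were higher and 1 lower (median 7.54, 8.02%), and in IHCs 4 were higher (median 3.65, 2.65%), where the median of all genes tested was 0 in each. OHCs (P22) were higher than cHCs for 4 of the 12 genes, among them *Kcnma1* by 10 ± 1.11, *Ryr2* by 7.41 ± 1.32 and *Kcnn2* by 4.78 ± 0.82. They were lower for 2, among them *Itpr3*, an IP3 receptor gene, by -11.50 ± 2.46. The 4 genes named here had an adjusted p of 0.0295 or less in edgeR. The median of the 12 genes was 2.29 and that of all genes tested -0.19, and 3.18% of all genes were called. *Itpr3* was at 109 and 266 CPM in cHCs and at 3.29 CPM or less in every other library.

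Of the 12 partner genes tested, *Ryr1*, *Kcnn2* and *Atp2a3* were called for IHCs against OHCs (P22), where 1.46% of all genes were called. *Ryr1* was at 0.0337 and 0.0687 CPM in IHCs and at 390.9 and 95.2 CPM in OHCs (P22), a log2 difference of -12.09 ± 1.13 (adjusted p = 0.00101, edgeR). *Atp2a3*, which encodes the calcium pump SERCA3, was at 1289 and 1548 CPM in IHCs and at 1.76 and 4.97 CPM in OHCs (P22), a difference of 8.70 ± 1.29 (adjusted p = 0.0105, edgeR). The groups did not overlap for either gene, and they stood on opposite sides.

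Of 9 other nicotinic subunit genes, 3 passed the filter. *Chrnb4*, which encodes the β4 subunit of autonomic ganglia, was at 423 and 23.5 CPM in OHCs (P22), at 7.45 and 17.0 CPM in OHCs (P7) and at 0 and 13.3 CPM in cHCs, with no count in SCs and at most 0.137 CPM in IHCs. The OHCs (P22) were called against SCs (adjusted p = 0.0288, edgeR), with the higher value in the library that stands apart in its TMM factor. *Chrnb2*, the β2 subunit gene of the brain receptor, was at 23.3 and 29.7 CPM in OHCs (P7) and at 6.94 and 33.6 CPM in cHCs. It was at 0.640 and 19.9 CPM in IHCs, at 1.14 CPM or less in OHCs (P22) and at 0.106 CPM or less in SCs. *Chrna4* and *Chrna6* were at 10.6 and 12.8 CPM in cHC replicate 16, the library that also held *Chrnd*, and at 2.26 CPM or less elsewhere.

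Of 12 assembly factors and Ly6 proteins, which help nicotinic receptors to the surface or bind them there, 7 were tested. *Tmie*, a gene of the hair cell transduction complex whose protein also aids assembly of nicotinic receptors, was at 61.3 CPM or more in each hair cell library and at 0.266 CPM or less in SCs, and was called in all 4 hair cell types. *Ly6e* was at 298 and 440.4 CPM in SCs, at 366 and 308 CPM in cHCs, at 0.303 and 59.8 CPM in IHCs and at 2.01 CPM or less in OHCs. It was lower in OHCs (P22) than in cHCs by -9.57 ± 1.92 (adjusted p = 0.0229, edgeR). Its levels in cHCs were inside the range of SCs. Of 8 genes of the muscle clustering machinery, 7 were tested, and *Musk*, the kinase that starts clustering in muscle, had no count in any library. Against SCs, 1 of the 7 was higher and 1 lower in OHCs at each age. The share of all genes called was 8.02% for OHCs (P22) and 3.41% for OHCs (P7). *Dok7*, which activates that kinase, was higher in OHCs (P22) by 9.73 ± 1.97 and in OHCs (P7) by 7.82 ± 1.84, with adjusted p of 0.0124 and 0.0438 in edgeR. *Agrn*, which encodes the nerve signal agrin, was lower in OHCs (P22) by -7.63 ± 1.49, and *Utrn*, which encodes utrophin of the membrane skeleton, was lower in OHCs (P7) by -3.46 ± 0.45, with adjusted p of 0.0102 and 0.00176 in edgeR. Of 5 muscarinic receptor genes *Chrm4* was highest in cHCs, at 3.70 and 20.1 CPM. The cholinergic genes *Chat* and *Slc5a7* and the neuron marker *Prph* summed to at most 0.0531 CPM in any library. The chosen list also held *Slc18a3*, which was not among the gene symbols counted.

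**Figure D4:**
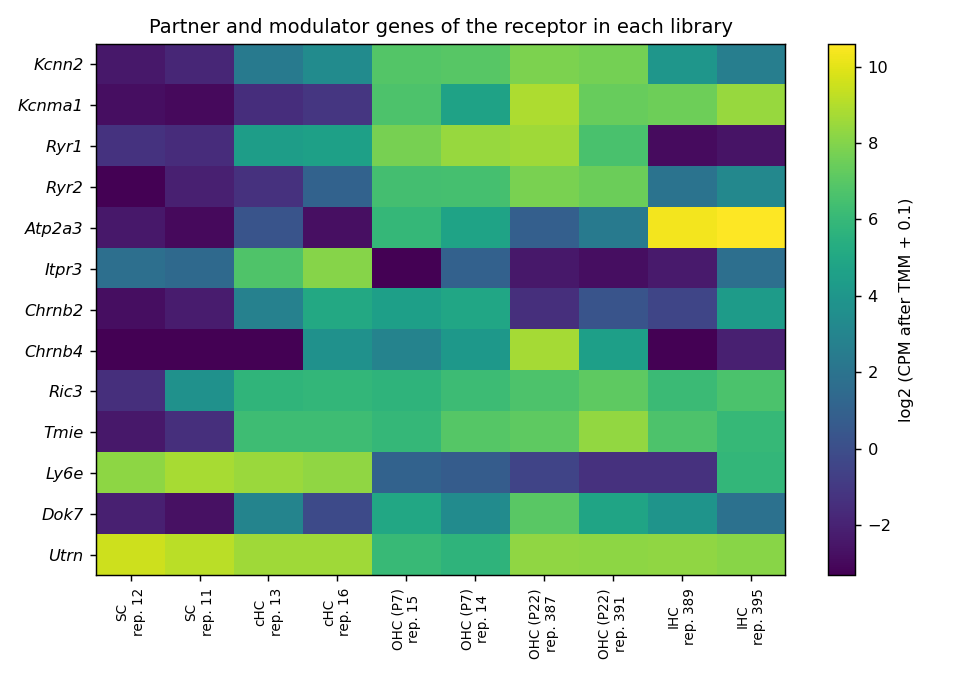
Level of 13 partner and modulator genes in each of the 10 libraries, as log2 of CPM plus 0.1. *Kcnma1* is near its lowest in SCs and cHCs and high in IHCs and OHCs, *Atp2a3* is highest in IHCs, where *Ryr1* is near its lowest, and *Ly6e* is high in SCs and cHCs.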

How the data were processed

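Total RNA of handpicked cells was amplified by single primer isothermal amplification and sequenced in paired ends. The authors deposited raw counts per gene, made per the submitters' notes with CASAVA 1.7, STAR, BWA and HTSeq on mm9. Totals of unassigned reads (44.2% to 72.1% of each file) were left out. Of 10 sample records, 4 held the file of another sample. Each library was therefore read from the file whose name carries its title, which was a constant multiple of the authors' CPM column for that library (coefficient of variation at most 0.000138%, against at least 170.4% for any other file).

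CPM used TMM factors. Differences were tested 2-sided with edgeR 4.0.16 (R 4.3.3; quasi-likelihood F-tests, filterByExpr, 16891 genes, 1 model of 10 libraries, common dispersion 1.12) and adjusted by Benjamini and Hochberg's method at 0.05. The SE was the log2 fold change divided by the square root of F. The tests were tried on simulated data. Alternatives were DESeq2 1.42.0, limma 3.58.1 with voom, RLE size factors, no filter, the files as attached, the compared types alone and each library left out. Figures used matplotlib 3.10.9. Gene positions and exon lengths came from GENCODE for NCBIM37. All 8 genes were described, and up to 4 genes per list and comparison were named, those with the largest change among the called and otherwise those with the highest level. *Chrm4*, *Itpr3*, *Chrna4*, *Chrna6* and *Musk* were singled out after their values were seen. The genes and lists were chosen with earlier results of these data known.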

Additional observations from a re-analysis of the deposited data

How the results depend on the processing

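Of the 16 calls of single receptor genes, 2 (*Chrna9* in cHCs against SCs and in IHCs against cHCs) are not independent of the picking by a *Chrna9* reporter. The part of the picking in the calls of *Chrna10* that involve cHCs was not tested. All 16 were kept with DESeq2, with RLE size factors, without a filter and with bias-adjusted deviances in edgeR (an alternative chosen after seeing the data). With limma-voom 13 were kept and with the compared types alone 11. When each record's attached file was used, 0 were kept and 4 changed sign, since 4 libraries then carry another cell type's counts. There the log2 difference of *Chrna9* was -2.35 for cHCs, -0.31 for OHCs (P22) and -4.75 for IHCs against SCs, and 2.62 for OHCs (P7) and 2.03 for OHCs (P22) against cHCs. That of *Chrna10* was -2.57 for IHCs against SCs, the range of the log2 ratio of both subunits was 2.50 (exact permutation p = 0.4), and every comparison, the joint test included, called 0 of the receptor genes. The cause of the other changes below was not tested.

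For cHCs against SCs, 4 genes were called with DESeq2, without a filter and with bias-adjusted deviances, and 2 to 3 with a library left out. The share of all genes called for cHCs against SCs was 10.4% with DESeq2 and 4.07% without a filter, against 1.84% in the main test. Shares for settings other than DESeq2, limma-voom and no filter are not given. For IHCs against SCs, limma-voom called 1 (6.23% of all genes, against 2.65% in the main test). The compared types alone called 0 there (adjusted p in edgeR of 0.231 for *Chrna9*, 0.257 for *Chrna10* and 0.0597 for *Chrna1*). For OHCs (P7) against cHCs, limma-voom (2.24% of all genes) and no filter (2.38%) each called 1, where the main test called 0 (0.343%). The gene was *Chrna9* in both, with the limit from the picking. For OHCs (P22) against cHCs, DESeq2 and limma-voom called 3, no filter and bias-adjusted deviances 2, and leaving out a library 0 to 2. The share of all genes in that comparison was 16.1% with DESeq2, 5.51% with limma-voom and 6.79% without a filter, against 3.18% in the main test. The limma-voom calls there include *Chrna9*, with the limit from the picking. For OHCs (P22) against OHCs (P7), DESeq2 (9.71% of all genes) and no filter (3.6%) called 2, where the main test called 0 (0.551%). For IHCs against OHCs (P7), DESeq2 (7.87% of all genes) and bias-adjusted deviances called 2 and no filter 3 (2.58%). The main test called 1 there (0.379%). For IHCs against OHCs (P22), DESeq2 called 4 (12.1% of all genes), limma-voom 1 (1.77%) and the compared types alone 1. The main test called 2 there (1.46%). With a library left out, the counts were 2 to 3 for OHCs (P7), 2 for OHCs (P22) and 2 to 3 for IHCs against SCs, 2 to 3 for IHCs against cHCs, 1 to 2 for IHCs against OHCs (P7), 1 to 3 for IHCs against OHCs (P22) and 3 to 4 in the joint test. The range of the *Chrna10* to *Chrna9* ratio was 2.50 without the reporter-picked cHCs (chosen after seeing the data). Its exact permutation p was 0.0667, the smallest that 15 arrangements allow. Without IHCs the range was 4.44, which rests on the reporter-picked cHCs, so no test is given for it. With a library left out, the range was taken over the cell types that kept 2 libraries, so a whole type was dropped, and was 2.50 to 4.44.

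With 2 libraries per type, an arm reduced to 1 library was assumed to vary like the others. No paired analysis was possible because the cell types share no replicate numbers. *Rapsn* had at most 8 counts in 9 of 10 libraries, so differences among those were not detectable at this depth.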
